A study of Mus musculus with 5 samples.

Results

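The interferon response and MHC class I set comprised 39 mouse genes, chosen by name from 35275 gene identifiers in the table, and all 39 were found. They were read in 4 groups by role: 7 genes of antigen presentation, 7 regulators and sensors, 20 antiviral effectors and 5 interferon-inducible GTPases. RNA sequencing had measured 5 samples of gastrocnemius, a calf muscle, from female NSG mice aged 12 weeks. All 5 belonged to 1 group, with no control: the labels give 10 tail-vein injections, 2 per week over 5 weeks, of about 10 µg each of extracellular vesicles (EVs) from MCF-10A/miR122 cells, and the gastrocnemius was removed 2 days after the final injection. MCF-10A is an immortal human breast epithelial line that does not form tumours, and miR-122 is a microRNA known from liver. The mice were of the NSG strain, NOD animals with the scid mutation in Prkdc and a disrupted Il2rg, and therefore without mature lymphocytes or natural killer cells; their genotype label reads Wild Type. Without an untreated group, the data give the levels of these genes in injected muscle and how far the 5 samples lay apart, not an effect of the vesicles. No label states that each number is its own animal, so SDs and p-values measure only the spread between these samples, which may be technical.

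Interferons are secreted signals of infection and inflammation. Type I interferons act mainly on interferon-stimulated response elements (ISRE) near their target genes, type II interferon acts mainly on gamma-activated sites (GAS), and both raise MHC class I, the molecules that show peptides from inside a cell to T cells. Skeletal muscle fibres are known for low class I at rest, whereas endothelial cells and macrophages carry more.

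The libraries held 16674504 to 25407988 reads, the fewest in library 3. Levels are in FPKM, reads scaled by gene length and by the library total, so levels of different genes can be set side by side. The 5 muscle fibre markers summed to 52717 to 71587 FPKM. The defining markers of cells that NSG mice lack were at or near 0: Ncr1 and Prf1 of natural killer cells were listed at 0 in all 5 libraries, and Cd3d, Cd3e, Cd3g and Cd8a each at 0 in 4 of them. The whole T cell list summed to 0.598 FPKM in library 3, 0.579 FPKM of it from Cd4, against 0.168 to 0.331 FPKM in the other 4 libraries, the B cell list to 0.295 against 0.220 to 0.652 FPKM, and the natural killer list to 0.0563 against 0 to 0.0320 FPKM. Over the 10710 genes that averaged at least 1 FPKM, library 3 lay farther from the others than they lay from each other: the root mean square difference of log2(FPKM + 1) to the other libraries averaged 0.485 for library 3 and 0.353 to 0.380 for the other 4. Results that rest on library 3 are therefore given with and without it. Among marker lists it held 366 FPKM over 11 macrophage genes, against 93.9 to 125 FPKM in the other 4 libraries, and 2.09 FPKM of the leukocyte gene Ptprc, against 0.266 to 0.406 FPKM. Markers of regenerating fibres summed to 129 FPKM in library 3, against 13.4 to 24.2 FPKM in the others, and 8 endothelial markers to 94.97 FPKM, against 97.9 to 126 FPKM.

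Stretches of promoter sequence are shown first, because they carry the response motifs by which the groups can be compared. RefSeq (GRCm38.p6) gave windows of 250 bases before to 50 after the start for 31 of the 39 genes, and for 27025 genes in all. Distances depend on that start: the stretches of H2-D1 and Irgm1 printed below lie inside the gene spans of GENCODE M21, the annotation used for symbols and gene positions. The first set below shows class I. It covers B2m at chr2:122147523-122147582 on the plus strand, H2-D1 at chr17:35262898-35262977 on the plus strand and H2-K1 at chr17:34000404-34000483 on the minus strand. Capitals mark an ISRE-type match (GAAANNGAAA) in B2m, and in the H2 genes the enhancer A palindrome GGGGATTCCCC followed by the TTTCACTTC of the class I response element.
B2m: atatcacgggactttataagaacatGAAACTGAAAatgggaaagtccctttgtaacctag
H2-D1: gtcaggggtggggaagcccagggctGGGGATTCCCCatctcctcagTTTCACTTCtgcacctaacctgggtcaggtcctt
H2-K1: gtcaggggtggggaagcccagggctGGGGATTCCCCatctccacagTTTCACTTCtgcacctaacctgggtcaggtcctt

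The second set shows 3 antiviral effectors with repeated ISRE-type letters, in capitals. Isg15 lies at chr4:156200850-156200921 on the minus strand, Ifit1 at chr19:34640760-34640838 on the plus strand and Oas1a at chr5:120907526-120907570 on the minus strand. The Ifit1 matches read on the other strand.
Isg15: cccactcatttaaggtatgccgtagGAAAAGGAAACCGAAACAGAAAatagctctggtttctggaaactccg
Ifit1: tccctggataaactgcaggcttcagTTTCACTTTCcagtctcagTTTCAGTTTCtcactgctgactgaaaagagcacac
Oas1a: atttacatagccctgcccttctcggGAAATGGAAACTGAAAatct

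The third set shows 3 GTPases in the same way, Gbp3 at chr3:142559974-142560039 and Igtp at chr11:58199497-58199555 on the plus strand, and Irgm1 at chr11:48871421-48871475 on the minus strand.
Gbp3: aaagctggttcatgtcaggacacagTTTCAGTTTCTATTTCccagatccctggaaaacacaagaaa
Igtp: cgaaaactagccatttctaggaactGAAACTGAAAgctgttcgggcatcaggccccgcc
Irgm1: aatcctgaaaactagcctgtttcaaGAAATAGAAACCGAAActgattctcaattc

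With GAAANNGAAA searched on both strands, 17 of the 31 windows of the set held a match, against 3.99% of all genes with a window. Of the GTPases 5 of 5 had it, of the antiviral effectors with a window 9 of 14, of the regulators and sensors 2 of 7 and of the antigen presentation genes 1 of 5, namely B2m. These counts are of those exact letters, and the class I response element of H2-D1 and H2-K1, which differs from them, was counted apart. Up to 3 matches overlapped each other, as in Isg15. The GAS-type letters TTCNNNGAA were in 9 of 31 windows, against 9.55% of all genes, and overlapped an ISRE-type match in 2 cases. The class I letters were searched after the sequences had been seen. Among the 31 windows they occurred in H2-D1 and H2-K1; genome-wide the enhancer A palindrome was in 9 genes and the response element in 0.596% of genes. The H2-D1 and H2-K1 stretches, 80 bases each, differed at 1 position. A match is a description of letters, not a bound site.

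**Figure D1:**
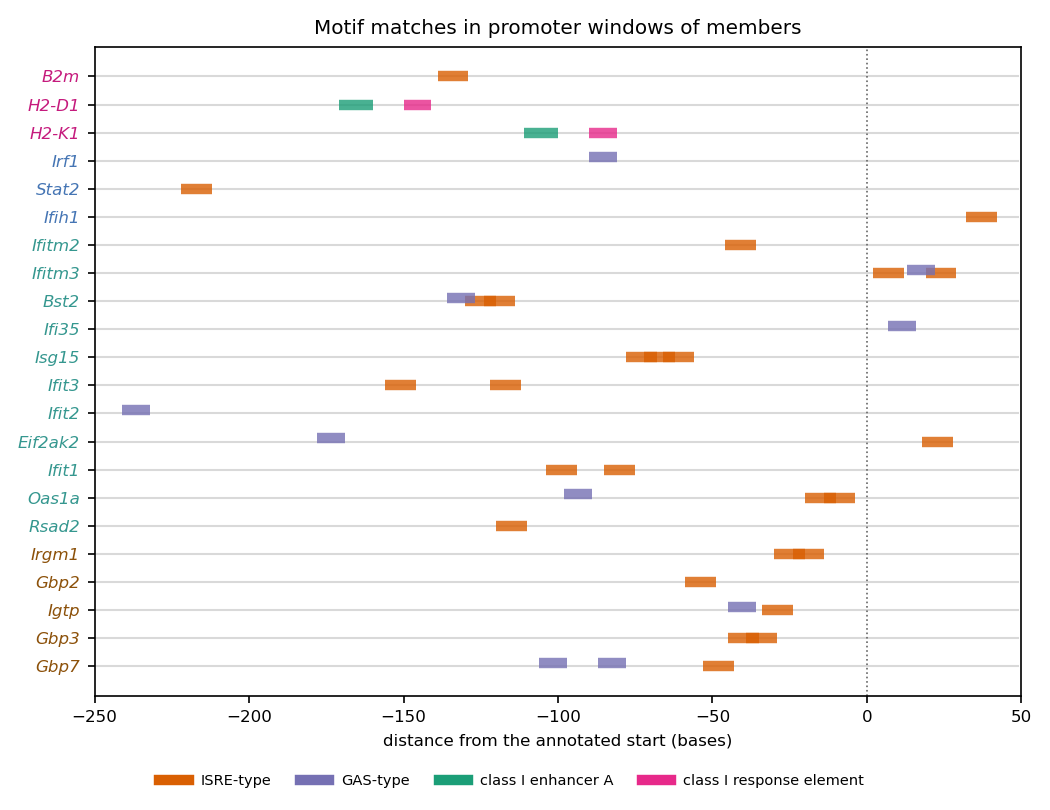
Positions of motif matches (coloured bars) by distance in bases from the RefSeq start site, for the genes of the set with a match. Rows are coloured by group; all 5 GTPases carry an ISRE-type bar, and H2-D1 and H2-K1 carry the class I pair.

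The members of the set spanned a wide range of levels. Of the 39 genes, 30 reached a mean of 1 FPKM, among them 6 of 7 antigen presentation genes, 6 of 7 regulators and sensors, 13 of 20 antiviral effectors and 5 of 5 GTPases. Just below 1 FPKM lay Ifit1 at 0.955 and Usp18 at 0.815, and just above it Tap1 at 1.04 and Parp14 at 1.1; Tap1 reached it through library 3, since it averaged 0.828 FPKM without that library. The median of those 30 means was 2.74 FPKM, against 6.004 FPKM over the 10710 genes that reached 1 FPKM. B2m stood highest at 83.2 ± 25.4 FPKM (SD, n = 5) and Nlrc5 lowest at 0.0969 ± 0.0496 FPKM.

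**Figure D2:**
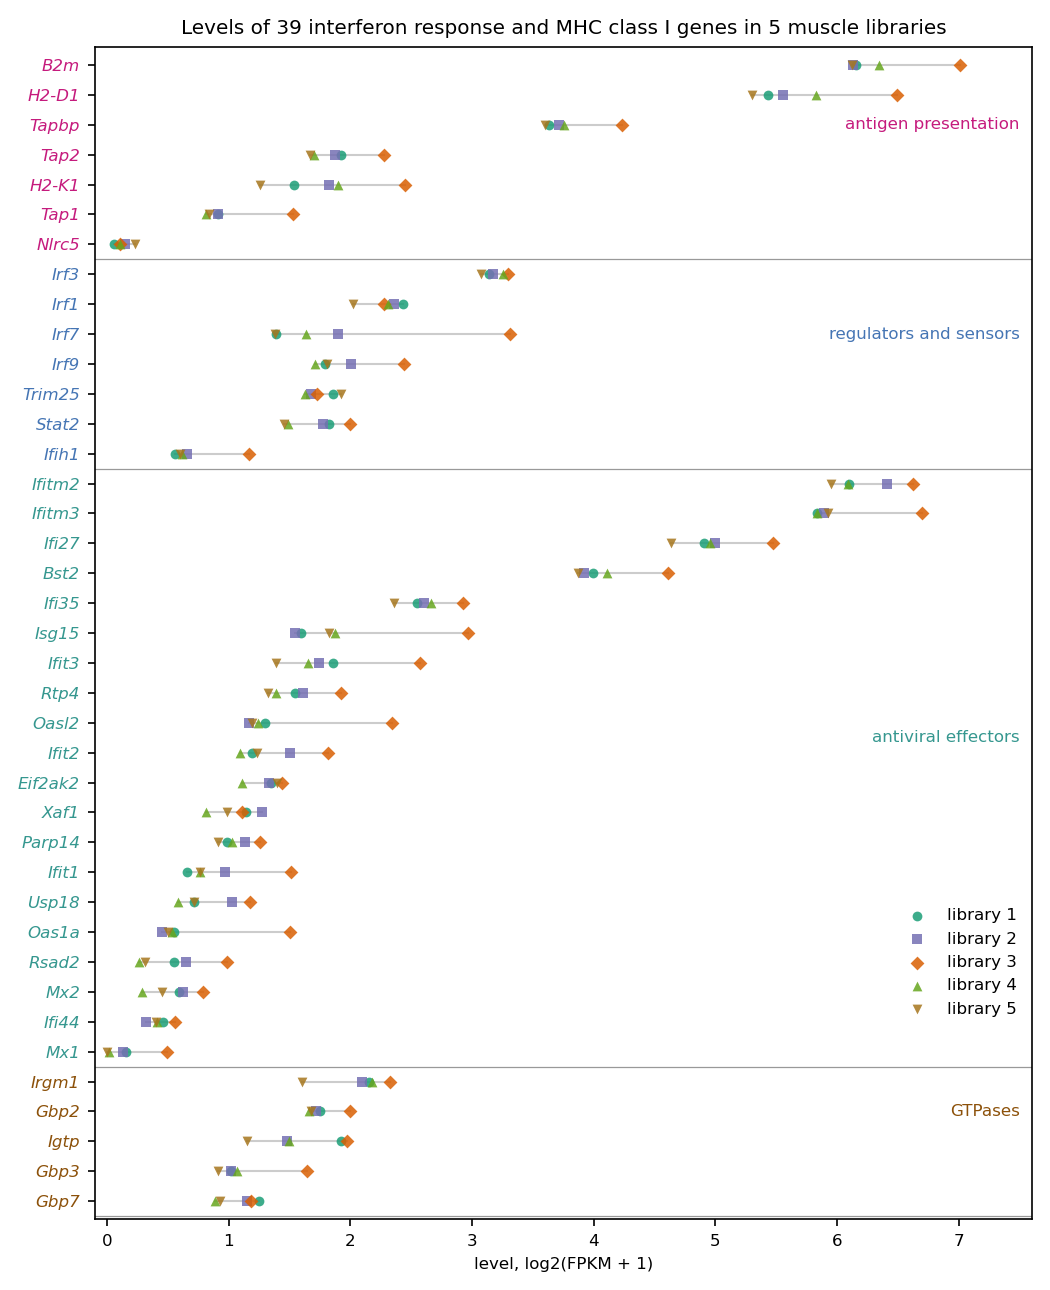
Level of each gene, log2(FPKM + 1), in each of the 5 libraries (symbols); grey lines join the lowest and highest library. B2m, H2-D1, Ifitm2 and Ifitm3 lie above 5 in all 5 libraries, and library 3 (diamonds) is the rightmost symbol for 34 of 39 genes.

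In antigen presentation, B2m and H2-D1 had higher levels than the other 5 genes in every library. B2m, the invariant light chain (ENSMUSG00000060802, chromosome 2, 122147686 to 122153083 on GRCm38), had 128 FPKM in library 3, against 70.4, 69.0, 80.3 and 68.6 FPKM in libraries 1, 2, 4 and 5. H2-D1, a class I heavy chain (ENSMUSG00000073411, chromosome 17, 35262730 to 35267499), had 89.2 FPKM in library 3, against 42.2, 45.9, 55.7 and 38.4 FPKM in the same 4 libraries. Both were highest in library 3, and the other 4 libraries lay within a narrow band for B2m (coefficient of variation, CV, 7.68%) and a wider one for H2-D1 (16.3%).

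H2-K1, the second classical heavy chain of this reference, averaged 2.60 ± 1.16 FPKM (SD, n = 5). H2-D1 exceeded it by 3.93 ± 0.13 on the log2(FPKM + 1) scale in 5 of 5 libraries, a linear ratio of 18.1 to 27.7. As background, NOD-derived strains carry the Kd and Db alleles, whereas the C57BL/6 reference carries Kb and Db; the part of this mismatch, or of reads shared between class I copies, in the low H2-K1 value was not tested. B2m exceeded H2-D1 by 0.63 ± 0.14 on that scale in 5 of 5 libraries.

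The peptide transporter subunits were scarce. Tap1 had 1.89 FPKM in library 3, against 0.881, 0.883, 0.762 and 0.785 FPKM in libraries 1, 2, 4 and 5. Tap2 had 3.85 FPKM in library 3, against 2.18 to 2.80 FPKM in the others, and was above its partner in every library (Tap1 minus Tap2 -0.89 ± 0.10, log2(FPKM + 1) scale, n = 5). Tapasin (Tapbp), which holds class I at the transporter, was at 17.8 FPKM in library 3, against 11.1 to 12.5 FPKM in the others, and exceeded Tap1 by 2.79 ± 0.09 on that scale; 24.9% of its exon bases overlap an antisense gene, whose reads cannot be told apart here. Nlrc5, the class I transactivator, was near the detection floor at 9 reads in library 3 and 7, 14, 13 and 31 reads in libraries 1, 2, 4 and 5, the one gene of the 7 that was not highest in library 3. H2-D1, H2-K1, Tap1, Tap2 and Tapbp all lie in the MHC, within 1352 kb of chromosome 17.

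Among the regulators, a constitutive and an inducible factor of the same family can be set side by side. Irf3, which is present at rest and activated by phosphorylation, had 8.80 FPKM in library 3, against 7.80, 8.02, 8.56 and 7.44 FPKM in libraries 1, 2, 4 and 5. Irf7, which interferon itself induces and which amplifies type I interferon (ENSMUSG00000025498, chromosome 7, 141262706 to 141266481), had 8.95 FPKM in library 3, against 1.62, 2.73, 2.10 and 1.60 FPKM in the same 4 libraries. Irf3 was thus nearly level across the 5 libraries, and Irf7 stood in library 3 at 4.45 times the mean of the other 4. Irf3 exceeded Irf7 in 4 of 5 libraries, by 1.28 to 1.75 on the log2(FPKM + 1) scale, and differed by -0.02 in library 3 (exact sign-flip permutation test, two-sided p = 0.125, adjusted p = 0.146 over 14 pairs).

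Stat2 and Irf9, which act together in a complex that binds ISRE, were close to each other. Irf9 had 4.43 FPKM in library 3, against 2.27 to 3.01 FPKM in the others, and Stat2 had 2.99 FPKM, against 1.74 to 2.54 FPKM. Irf9 was higher in 4 of 5 libraries, by 0.24 ± 0.18 (log2(FPKM + 1) scale, exact permutation p = 0.125). Irf1, a factor known as a target of interferon gamma, was highest in library 1 at 4.41 FPKM and had 3.84 FPKM in library 3. Of the sensors, Ifih1, the cytosolic RNA receptor MDA5, had 1.25 FPKM in library 3, against 0.479 to 0.582 FPKM in the others, whereas Trim25, a ubiquitin ligase that acts with RIG-I, had 2.32 FPKM, against 2.09 to 2.79 FPKM, with its highest level in library 5.

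The antiviral effectors split into a few abundant transcripts and many scarce ones. Ifitm2 and Ifitm3, which block the entry of viruses through endosomes, averaged 75.3 ± 14.99 and 66.5 ± 20.2 FPKM (SD, n = 5). Ifitm3 had 103 FPKM in library 3, against 56.0, 58.3, 55.9 and 59.6 FPKM in libraries 1, 2, 4 and 5, with a CV of 3.15% among those 4. Ifitm2 had 97.3 FPKM in library 3 and 67.6, 84.0, 66.9 and 60.8 FPKM in the same 4, so its highest library was less set apart. Ifitm3 minus Ifitm2 was -0.20 ± 0.23 on the log2(FPKM + 1) scale, above 0 in 1 of 5 libraries (exact permutation p = 0.188). The pair lies within 55.9 kb of chromosome 7, and 40.9% of the exon bases of Ifitm2 overlap Gm45717 on the same strand.

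Ifi27, a small hydrophobic interferon-inducible protein, averaged 31.4 ± 7.17 FPKM and Bst2, tetherin, which holds budding viruses at the cell surface, 16.5 ± 3.99 FPKM (SD, n = 5 each). Both were highest in library 3, Ifi27 at 43.3 FPKM, against 23.8 to 31.0 FPKM, and Bst2 at 23.4 FPKM, against 13.7 to 16.2 FPKM. None of the other 16 antiviral effectors reached a mean of 10 FPKM; Ifi35 came nearest at 5.20 ± 0.91 FPKM, of which an overlapping antisense gene covers 16.8% of the exon bases.

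Isg15, Oasl2 and Oas1a, transcripts used as reporters of type I interferon, were low in 4 libraries and higher in library 3. Several of the effectors given below, such as Usp18 and Ifi44, were less set apart there. Isg15, the ubiquitin-like modifier (ENSMUSG00000035692, chromosome 4, 156199424 to 156200818), had 6.82 FPKM in library 3, against 2.02, 1.93, 2.66 and 2.55 FPKM in libraries 1, 2, 4 and 5. Oasl2, a relative of the 2′-5′ oligoadenylate synthetases, had 4.07 FPKM in library 3, against 1.47, 1.24, 1.37 and 1.29 FPKM. Oas1a, a synthetase that activates RNase L, had 1.85 FPKM in library 3, from 58 reads, against 0.463, 0.372, 0.445 and 0.418 FPKM from 13 to 20 reads each. In all 3 genes the other 4 libraries lay below library 3, with CVs among them of 16.2% for Isg15, 7.35% for Oasl2 and 9.32% for Oas1a. The 95% exact Poisson interval of Oas1a began at 1.401 FPKM in library 3, against upper bounds of 0.636 to 0.715 FPKM in the other 4; such intervals cover counting error only. Oasl2 exceeded Oas1a by 0.74 ± 0.06 on the log2(FPKM + 1) scale; the linear ratio was 2.21 in library 3, against 3.08 to 3.34 in the others.

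The Ifit genes, which bind foreign RNA and lie within 99.3 kb of chromosome 19, showed the same order with wider scatter. Ifit3 had 4.95 FPKM in library 3 and 1.62 to 2.63 FPKM in the others, Ifit2 had 2.53 against 1.13 to 1.84 FPKM, and Ifit1 had 1.85 against 0.575 to 0.955 FPKM. Ifit3 exceeded Ifit1 in 5 of 5 libraries by 0.91 ± 0.23 (log2(FPKM + 1) scale); Ifit3b, a near copy of Ifit3, averaged 0.575 FPKM, so reads split between them leave Ifit3 uncertain. Usp18, the protease that removes ISG15 and damps the type I receptor, reached 1.25 FPKM in library 3, close to its 1.04 FPKM in library 2. The linear ratio of Isg15 to Usp18 was 5.44 in library 3, against 3.15, 1.86, 5.35 and 3.96 in libraries 1, 2, 4 and 5, so libraries 3 and 4 were close.

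The least abundant effectors were limited by depth. Mx1, a nuclear GTPase against influenza virus that many inbred strains carry in defective form, had 23 reads in library 3 and 9, 6, 1 and 0 reads in libraries 1, 2, 4 and 5, where 0 reads allow up to 0.0349 FPKM at 3 reads. Mx2, its cytoplasmic relative, which lies with it within 114 kb of chromosome 16, had 0.726 FPKM in library 3, against 0.220 to 0.545 FPKM. Rsad2 (viperin), which makes a chain-terminating nucleotide, had 0.988 FPKM in library 3, against 0.200 to 0.567 FPKM, and Ifi44 had 0.472 FPKM, against 0.252 to 0.376 FPKM. Counting error alone gave Mx2 and Ifi44 a CV of 21.4% and 18.7%.

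The remaining effectors lay closer together. Eif2ak2, the kinase PKR that halts translation on double-stranded RNA, had 1.71 FPKM in library 3 and 1.16 to 1.63 FPKM in the others. Parp14, an ADP-ribosyltransferase, had 1.40 against 0.881 to 1.20 FPKM, and Rtp4 had 2.78 against 1.501 to 2.06 FPKM. Xaf1, which binds the apoptosis inhibitor XIAP, had 1.15 FPKM in library 3 and its highest level, 1.41 FPKM, in library 2.

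The 5 GTPases, which act on the membranes around intracellular pathogens, were low, with means of 1.12 to 3.26 FPKM. Irgm1 had 4.02 FPKM in library 3, against 3.44, 3.27, 3.54 and 2.04 FPKM in libraries 1, 2, 4 and 5, and Igtp had 2.94 FPKM, against 2.78, 1.79, 1.83 and 1.23 FPKM. For both, library 5 lay farther below the next library than library 3 lay above the next. Their CVs without library 3 (22.6% and 33.9%) were about those with it (22.6% and 34.3%). Igtp minus Irgm1 was -0.47 ± 0.19 on the log2(FPKM + 1) scale, below 0 in 5 of 5 libraries.

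The guanylate-binding proteins Gbp2, Gbp3 and Gbp7 lie within 108 kb of chromosome 3 but did not all share a pattern: Gbp2 and Gbp3 were set apart in library 3, and Gbp7 was not. Gbp3 had 2.12 FPKM in library 3, against 1.02, 1.03, 1.095 and 0.880 FPKM in libraries 1, 2, 4 and 5. Gbp2 had 3.003 FPKM in library 3, against 2.17 to 2.38 FPKM, and Gbp7 had 1.28 FPKM, against 0.847 to 1.38 FPKM, with its highest level in library 1. On the log2(FPKM + 1) scale Gbp7 minus Gbp3 was -0.46 in library 3, against 0.23, 0.13, -0.18 and 0.02 in libraries 1, 2, 4 and 5 (mean -0.05 ± 0.27, exact permutation p = 0.75; 0.05 without library 3). These paralogs are similar in sequence, and no source used here says how reads were assigned among them.

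**Figure D3:**
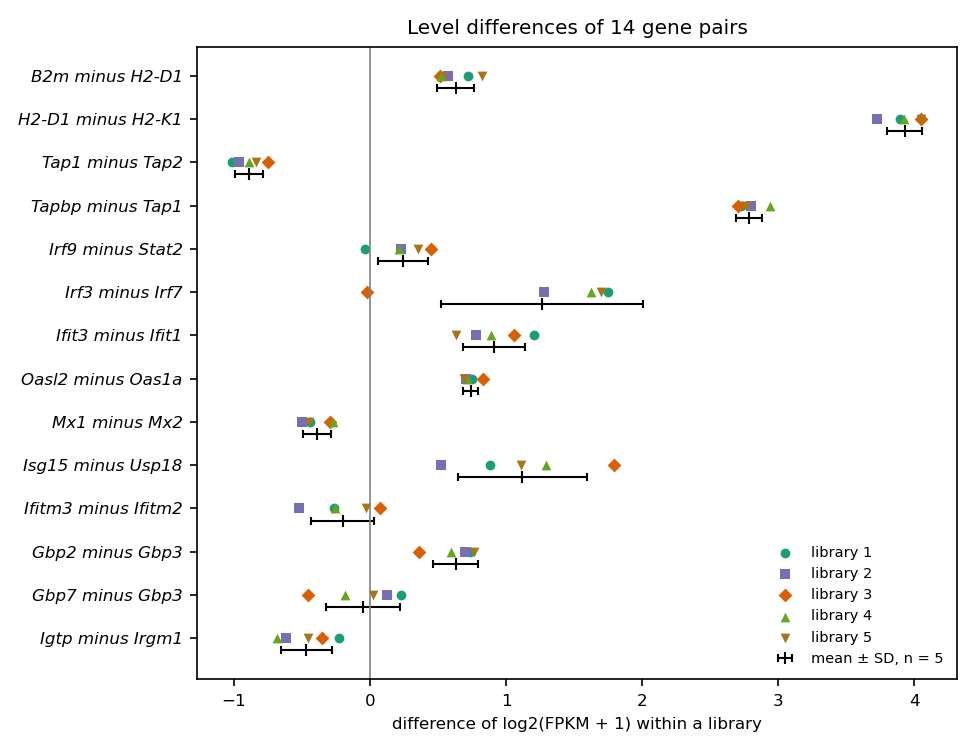
Difference of log2(FPKM + 1), first gene minus second, in each library (symbols) for 14 pairs, with mean ± SD (bars, n = 5). Irf3 minus Irf7 sits at -0.02 in library 3 and between 1.28 and 1.75 elsewhere.

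These values are differences on the log2(FPKM + 1) scale, which understates ratios of genes at low levels. Of the 14 pairs, 10 had the same sign in all 5 libraries. Each of those reached an exact two-sided p of 0.0625, the smallest that 5 samples allow, and an adjusted p of 0.0875, so no pair could pass 0.05. The order within these pairs held in 5 of 5 libraries, library 3 included, while the levels themselves differed between libraries.

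The group levels followed the order antigen presentation, antiviral effectors, GTPases. The mean over members of log2(FPKM + 1) was 2.95 ± 0.28 for antigen presentation, 1.99 ± 0.26 for antiviral effectors, 1.53 ± 0.21 for GTPases and 1.93 ± 0.22 for regulators and sensors (SD, n = 5). Within a library antigen presentation exceeded antiviral effectors by 0.96 ± 0.08 and GTPases by 1.42 ± 0.15, and antiviral effectors exceeded GTPases by 0.46 ± 0.13, each in 5 of 5 libraries. With the median over members in place of the mean, the last difference turned to -0.27 ± 0.22, and antigen presentation minus GTPases to 0.39 ± 0.13; 4 of the 20 antiviral effectors averaged over 10 FPKM.

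Library 3 was the highest library for 34 of the 39 genes, against 33.8% of the 20840 genes above 0 in any library. Among the 30 genes at 1 FPKM or more the count was 26, against 37.4% of all 10710 such genes, and 23 against 27% after median-of-ratios scaling of the libraries. These 30 include Tap1, which reached 1 FPKM only through library 3. The exceptions among the 39 were Nlrc5, Trim25, Irf1, Gbp7 and Xaf1. At a mean of 10 FPKM or more, library 3 was highest for 7 of 7 genes, against 37% of all such genes. Over the 30 genes the median ratio of library 3 to the mean of the other 4 was 1.87 for antigen presentation, 1.57 for antiviral effectors, 1.26 for regulators and sensors and 1.33 for GTPases, against 1.06 over all genes tested. Over all 39 genes, where no filter on level applied, the ratio was 1.77 for both antigen presentation and antiviral effectors, 1.40 for regulators and sensors and 1.33 for GTPases. Library 3 was more than 1.5 times the mean of the other 4 in 25 of 39 genes, against 22.3% of all genes above 0, and in 18 of the 30, against 13.5%. In 13 of the 39 genes the gap between library 3 and the next library exceeded 0.71 of the whole range, against 7.65% of all genes above 0, and in 10 of the 30, against 6.23%. At 10 FPKM or more, 4 of 7 genes had a highest or lowest library that far from the next, against 10.3% of all such genes. With library 3 left out and the stricter limit for 4 samples, it was 1 of 30, against 6.12% of genes tested. At the other end, library 5 was lowest for 19 of the 30, against 24.9% of genes tested.

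A group score, the mean over a group's genes at 1 FPKM or more of their deviation from their own mean, put the same pattern on 1 scale. In library 3 it was 0.57 for antigen presentation, 0.47 for antiviral effectors, 0.37 for regulators and sensors and 0.30 for GTPases, against 0.10 for all genes tested. The antigen presentation score includes Tap1, which reached 1 FPKM only through library 3. In the other libraries the scores lay between -0.29 and 0.09. Without library 3 the SD of the score dropped to 0.11 for antigen presentation, against 0.34 with it, and to 0.07 for antiviral effectors, against 0.27 with it; for GTPases it was 0.15, against 0.21 with it.

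**Figure D4:**
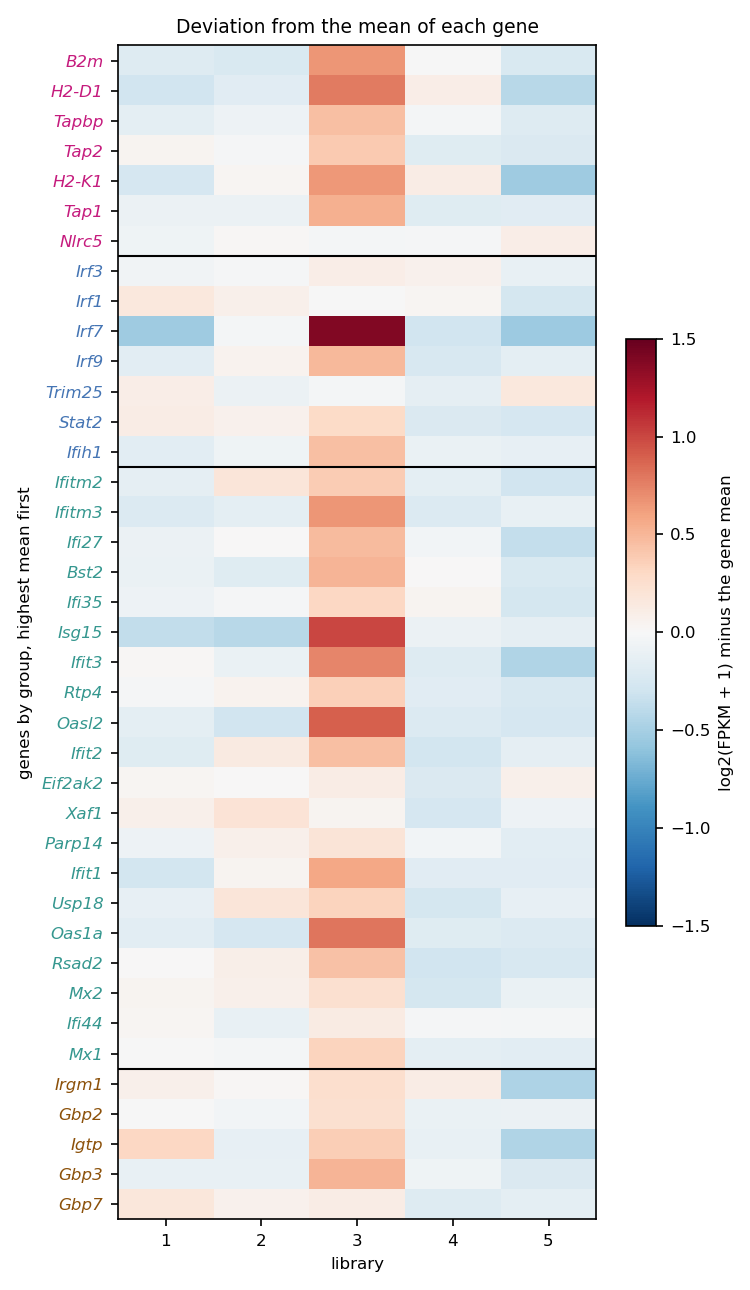
Deviation of each gene from its mean over the 5 libraries, in log2(FPKM + 1), by library (columns), with genes ordered by group and level. The column of library 3 is red for most rows, most of all for Irf7, Isg15 and Oasl2, and the GTPases are paler.

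The spread between libraries was tested across all genes. In limma, which set the variance of each gene against the trend for its abundance, 0 of 30 genes of the set passed an adjusted p of 0.05, as did 0% of the 10710 genes tested. At an unadjusted p under 0.05 it gave 3 of 30, against 5.75% of all genes. These were Irf7 (limma adjusted p = 0.680), Isg15 (limma adjusted p = 0.809) and H2-D1 (limma adjusted p = 0.863). With so few samples only a very large variance could pass: that of Irf7, 16.4 times its trend, gave an unadjusted limma p of 0.0101. The count of 0 therefore does not show that the spread was small. In a chi-square test of reads against counting error alone, 28 of 30 varied, against 87.9% of all genes, a share close to the background; Irf3 (adjusted p = 0.170) and Gbp2 (adjusted p = 0.0656) did not pass. Without library 3 it was 18 of 30, against 78.3%. The median CV of the 30 genes was 24.3%, against 16.3% for all genes tested, and without library 3 it was 13.97%, against 14.2%.

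Among libraries 1, 2, 4 and 5, library 4 was highest more often in the set than over all genes, before and after scaling. Of the 30 genes, 8, 9, 10 and 3 were highest in libraries 1, 2, 4 and 5, where all genes gave 28.9%, 41.1%, 17.2% and 12.8%. These counts depended on scaling: after median-of-ratios scaling they were 5, 6, 16 and 3 of 30, where all genes gave 16.4%, 22.4%, 35.4% and 25.8%. The median gene of library 4 lay -0.10 from its mean on the log2(FPKM + 1) scale before that scaling.

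Several lists of cell type markers were also highest in library 3. Macrophage genes were highest there in 10 of 11 cases, Lyz2 at 172 FPKM, against 29.7 to 46.8 FPKM, and Cd68 at 35.3 FPKM, against 3.21 to 5.396 FPKM. MHC class II, which macrophages and other antigen presenting cells carry, was highest there in 7 of 7 genes, with a sum of 126 FPKM, against 23.1 to 29.97 FPKM. Erythroid markers summed to 1028 FPKM, against 328 to 500 FPKM, and adipocyte markers to 73.5 FPKM, against 9.79 to 29.1 FPKM. Fibroblast markers summed to 1083 FPKM in library 3, against 618 to 818 FPKM, mural markers to 179 against 111 to 148 FPKM, Schwann cell markers to 109.7 against 46.6 to 72.8 FPKM and satellite cell markers to 17.5 against 11.05 to 14.9 FPKM. Monocyte and neutrophil markers summed to 4.89 FPKM in library 3 and were highest in library 2 at 5.63 FPKM, as were dendritic cell markers, at 2.18 FPKM in library 3 and 2.35 FPKM in library 2. Of the remaining lists, 0 of 8 endothelial markers and 0 of 5 muscle fibre markers were highest in library 3. In bulk muscle, more cells of a type and more RNA per cell cannot be told apart, and the part of any of these cells, of regeneration or of the lower depth of library 3 in the levels of the set was not tested.

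**Figure D5:**
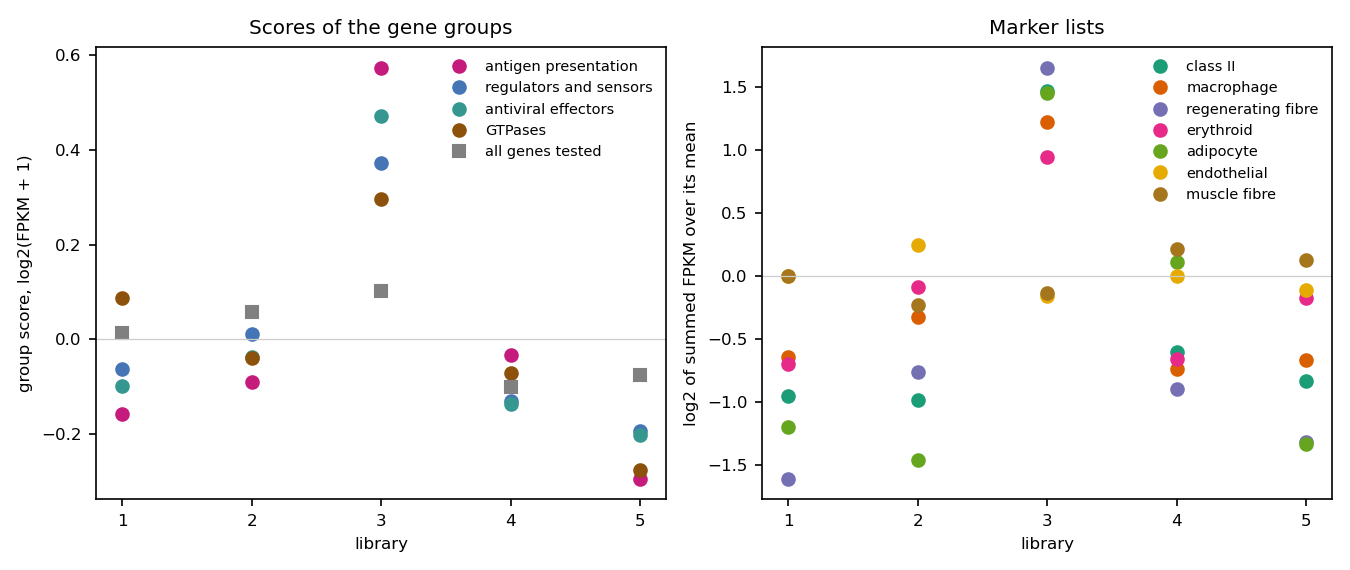
Left, score of each group and of all genes tested by library, in log2(FPKM + 1); right, log2 of the summed FPKM of marker lists over their mean by library. Library 3 holds the highest score of all 4 groups and the highest sum of class II, macrophage, regenerating fibre, erythroid and adipocyte lists, but not of the endothelial or muscle fibre lists.

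The rest of the pathway was counted in a list of 100 further genes, 98 of them in the table (Gbp5 and Gbp6 were not analysed here). The 9 interferon genes listed, from Ifna1 and Ifnb1 to Ifng and Ifnl3, were at 0 in all 5 libraries, which allows up to 0.0912 to 0.321 FPKM at 3 reads. Of 58 listed genes at 1 FPKM or more, 39 were highest in library 3, against 37.4% of all genes tested, 0 passed in limma, 9 had an unadjusted p under 0.05 there, against 5.75% of all genes, and 54 varied beyond counting error, close to the 87.9% of all genes. By role, the highest level was in library 3 for 12 of 16 other class I pathway genes, 13 of 20 other response genes and 5 of 5 class II genes. It was there for 3 of 5 factors, 4 of 8 receptors and kinases and 2 of 4 sensors and adaptors. Class II held 4 of the 9 genes with an unadjusted limma p under 0.05. The receptor chains were present throughout: Ifngr2 at 23.5 ± 3.43 FPKM, Ifngr1 at 11.1 ± 1.63, Ifnar1 at 3.70 ± 0.72 and Ifnar2 at 2.30 ± 0.66 (SD, n = 5).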

How the data were processed

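Deposited FPKM values, calculated by the authors, were the starting point, with 1 column for each sample. Per the submitters' processing notes, mm10, HTSeq 0.6.1, STAR 2.5, edgeR, DESeq2 and TopHat were involved, in roles not specified; per the labels, RNA of about 20 mg of tissue was selected on poly-A tails. Annotation release, strand setting and the handling of reads that match several genes were not given in the sources used here.

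Members and lists were chosen with earlier results of these data known. Every gene of the set was named, and other genes by a list of the pathway. Symbols were matched through GENCODE M21 (34490 of 35275 identifiers). Exons of 17 of the 39 genes overlap another gene, over 10% of their bases in 6.

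FPKM steps gave whole reads, within 0.001, for 20817 genes (99.9% of those above 0), with library totals found from the values and the smallest gene length that fits all 5; these reads summed to 99.4% of the totals. They served for the chi-square test and 95% intervals, which cover counting error only; 3 reads equal 0.118 to 0.180 per 1000000 reads. Genes averaging 1 FPKM or more (10710) entered a test on log2(FPKM + 1) with limma 3.58.1 in R 4.3.3: variance over its abundance trend, one-sided F with 4 and 3.93 degrees of freedom, Benjamini-Hochberg adjustment. Gene pairs had an exact sign-flip test over 32 sign patterns. The design had allowed for counts; the FPKM test was used. Scripts were tested on simulated data. Alternatives covered pseudocount, filters, scaling, group membership, the summary over members and leaving out each library. Other steps ran in Python 3.11.15 with scipy 1.17.1, numpy 2.4.6, matplotlib 3.10.9 and pandas 2.3.3.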

Additional observations from a re-analysis of the deposited data

Results flagged for a closer look

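In 13 genes of the set library 3 lay so far above the other 4 that its gap to the next library exceeded 0.71 of the whole range, the 95% limit of Dixon for 5 samples. Chance flags about 1 in 20 groups when any library at either end counts, so the rate for library 3 on top alone would be lower. With library 3 on top, 7.65% of all genes above 0 met the condition, as did 6.23% of genes at 1 FPKM or more. In antigen presentation these were B2m at 128 FPKM, Tapbp at 17.8 FPKM and Tap1 at 1.89 FPKM. Among regulators and sensors they were Irf7 at 8.95 FPKM and Ifih1 at 1.25 FPKM. Among antiviral effectors they were Ifitm3 at 103 FPKM, Bst2 at 23.4, Isg15 at 6.82, Oasl2 at 4.07, Oas1a at 1.85 and Mx1 at 0.407 FPKM, and among GTPases Gbp2 at 3.003 and Gbp3 at 2.12 FPKM. H2-D1, at 89.2 FPKM in library 3, did not meet the condition, because library 4 lay closer.

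The score of the antiviral effectors met it as well, at 0.47 in library 3 and -0.20 to -0.04 in the others, and the difference of log2(FPKM + 1), Irf3 minus Irf7, met it on the low side, at -0.0226 in library 3 and 1.28 to 1.75 in the others.

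Of the listed pathway genes outside the set at 1 FPKM or more, 14 met the condition, 13 of them in library 3, against 6.23% of all such genes. H2-Aa reached 1 FPKM only through library 3, since it averaged 0.822 FPKM without it, as Tap1 in the set averaged 0.828 FPKM. They were Cd74 at 77.2 FPKM, H2-Eb1 at 22.996, H2-Ab1 at 16.3 and H2-Aa at 3.28 of class II, Pdia3 at 39.7 and Psmb10 at 19.5 of the class I pathway, and Lgals3bp at 20.8, Lgals9 at 13.6, Ube2l6 at 10.1, Socs3 at 7.10, Parp12 at 4.77, Il10rb at 2.26 and Trim30a at 1.77 FPKM. Mavs, the adaptor of the RNA sensors, stood out in library 2 instead, at 22.8 FPKM, against 16.4 to 17.8 FPKM in the others.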

How the results depend on the processing

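Of the recomputed values, 151 kept their direction and their side of the threshold or spread, 19 moved and 2 reversed. Pairs with a gene at a low level kept their sign but changed in size with a pseudocount of 0.1: Mx1 minus Mx2 was -1.53, against -0.39 with 1, Oasl2 minus Oas1a 1.39 against 0.74, Ifit3 minus Ifit1 1.44 against 0.91, Isg15 minus Usp18 1.75 against 1.12 and Tap1 minus Tap2 -1.37 against -0.89. The levels of groups depended on how members were summarised. Antigen presentation minus antiviral effectors was 1.12 with a pseudocount of 0.1, 0.68 with genes at 1 FPKM or more, 0.78 with Mx1 and Mx2 among the GTPases and 0.66 with medians. Antigen presentation minus GTPases was 1.89, 1.76 and 0.39 under the last 3 of these. Antiviral effectors minus GTPases was 0.26, 1.21 and 0.98 under the first 3 and reversed to -0.27 with medians. Leaving out 1 library at a time gave 0.93 to 0.98, 1.38 to 1.48 and 0.42 to 0.50 for the 3 differences.

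The spread of 3 groups shrank without library 3. Over the 5 omissions, the SD of the score ranged from 0.11 to 0.39 for antigen presentation, 0.0881 to 0.26 for regulators and sensors and 0.0688 to 0.31 for antiviral effectors, lowest without library 3. The count of varying genes in limma ranged from 0 to 4 over all genes and was 0 in the set. Gbp7 minus Gbp3 ranged from -0.12 to 0.0498, above 0 without library 3. A further 3 counts without library 3 were chosen after seeing the data: 18 of 30 genes then varied beyond counting error, 1 of 30 had a library far from the rest, against 6.12% of all genes, and 9 were highest in library 2. At 10 FPKM or more, 7 genes of the set remained and all 7 were highest in library 3, against 37% of all such genes. After median-of-ratios scaling library 3 remained the farthest from the others over all genes tested, with a mean difference of 0.465, against 0.339 to 0.366. Library 3 had the fewest reads, and genes under 1 FPKM rest on few reads. No paired analysis was possible because the samples form 1 group.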

Other observations

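Several other genes of class I assembly were highest in library 3. The chaperones of the endoplasmic reticulum that fold class I were abundant: calreticulin (Calr) had 127 FPKM in library 3, against 77.4 to 92.7 FPKM in the others, Canx had 33.9 against 18.2 to 25.5 FPKM, and Pdia3 had 39.7 against 18.8 to 24.1 FPKM. The immunoproteasome subunits, which cut peptides for class I, were less abundant: Psmb8 had 4.69 FPKM in library 3, against 1.16 to 2.22 FPKM, and Psmb9 had 1.89 against 0.764 to 1.34 FPKM. Psme2 of the proteasome activator had 51.6 FPKM in library 3, against 25.4 to 35.0 FPKM, whereas its partner Psme1 had 20.1 FPKM, against 18.4 to 21.02 FPKM. The tapasin relative Tapbpl had 1.91 FPKM in library 3 and its highest level, 2.04 FPKM, in library 2, and the peptide-trimming protease Erap1 had 3.197 FPKM in library 3 and its highest, 3.48 FPKM, in library 5. Irf5 and Irf8, factors known from myeloid cells, had 7.71 and 3.91 FPKM in library 3, against 1.21 to 4.02 and 1.23 to 2.20 FPKM in the others.

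Some response genes did not follow; these were chosen after their values were seen. Ifitm1, a further member of the Ifitm family, had its lowest level in library 3, 0.340 FPKM, against 0.491 to 1.43 FPKM in the others. Irgm2 had 2.61 FPKM in library 3 and its highest level, 4.89 FPKM, in library 1; an exon overlap with Igtp leaves reads of both uncertain. Gbp4 had 0.383 FPKM in library 3, against 0.390 to 0.894 FPKM, and the feedback inhibitor Socs1 had 0.688 FPKM, against 0.484 to 1.61 FPKM, while Socs3 had 7.10 FPKM, against 2.21 to 3.49 FPKM.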
